A study of Mus musculus with 135 samples.

Results

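The RNA of single ovulated oocytes from young females lacking Tet1 was set directly against that of young females lacking Tet2. The members were chosen by their titles, as the T-named oocytes of 1 count table: 8 oocytes of Tet1-/- females, all of set T146, and 16 oocytes of Tet2-/- females, 8 of set T213 and 8 of set T214. These are 24 of the 135 labelled samples of the series. A set holds the oocytes whose titles share an identifier. The females were of C57BL6/129 background and 2 to 4 months old, and the oocytes were at metaphase II. The knockouts are written Tet1KO and Tet2KO below. Reference values come from 24 oocytes of 3 T-named young wild-type sets (WT, sets T148, T211 and T231) of the same background and age. These WT sets are not part of the contrast, but enter the choice of genes tested, the normalisation and the estimate of the spread. The labels name neither the deleted exons nor the animals behind a set. Because Tet1KO is 1 set, its genotype and its set cannot be told apart, and every test assumes that this set varies like the others.

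TET enzymes oxidise 5-methylcytosine in DNA, the first step by which a methyl mark at a CG dinucleotide can be removed. TET1 is known for its part in opening meiotic genes and imprinted loci in germ cells, TET2 for its part in blood, and TET3 as the TET protein stored in the egg. A metaphase II oocyte is transcriptionally silent, so its RNA is the store made while the oocyte grew, minus what was degraded during maturation.

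The knockout labels were checked first. Tet1 (chromosome 10, 62804570 to 62908996, build mm10) stood at 0 to 0.169 CPM (counts per 1e6 counts of the library) in the 8 Tet1KO oocytes with a median of 0. In the Tet2KO oocytes it stood at 1.89, 4.1 and 5.35 CPM (lowest, median, highest) in set T213 and at 1.04, 4.06 and 7.68 CPM in set T214. No Tet1KO oocyte reached the lowest Tet2KO oocyte. The summed Tet1KO set held 2 Tet1 counts and the Tet2KO sets 267, so Tet1KO was at 0.859% of the Tet2KO level, with a 95% exact interval of 0.104 to 3.13% that covers counting error only. The fitted log2 change was -6.65 ± 0.89 (SE), and it did not pass over all genes (edgeR adjusted p = 0.145).

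Tet2 (chromosome 3, 133463679 to 133545139) was not lost from the Tet2KO counts. Its level was 0.835, 1.59 and 3.64 CPM in the Tet1KO oocytes, 0.223, 1.05 and 3.83 CPM in T213, and 0.261, 1.01 and 2.68 CPM in T214, and the ranges overlapped. Summed, Tet2KO was at 66% of the Tet1KO level (95% exact interval 49.1 to 88.4%, counting error only). The WT sets stood at 2.22, 2.67 and 3.2 CPM, above all knockout sets, of which T146 was at 1.88 CPM and the Tet2KO sets at 1.24 ± 0.0836 CPM (SD, n = 2 sets). The fitted difference between the knockouts was 0.67 ± 0.41 (SE; edgeR adjusted p = 0.476). A count over the whole gene does not show whether the deleted part is missing.

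Tet3 (chromosome 6) was at 614 CPM in T146, 747 CPM in T213 and 602 CPM in T214, against 630 to 686 CPM in the WT sets. Its log2 change of -0.06 ± 0.19 (SE; edgeR adjusted p = 0.888) was smaller than the distance between the Tet2KO sets.

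**Figure D1:**
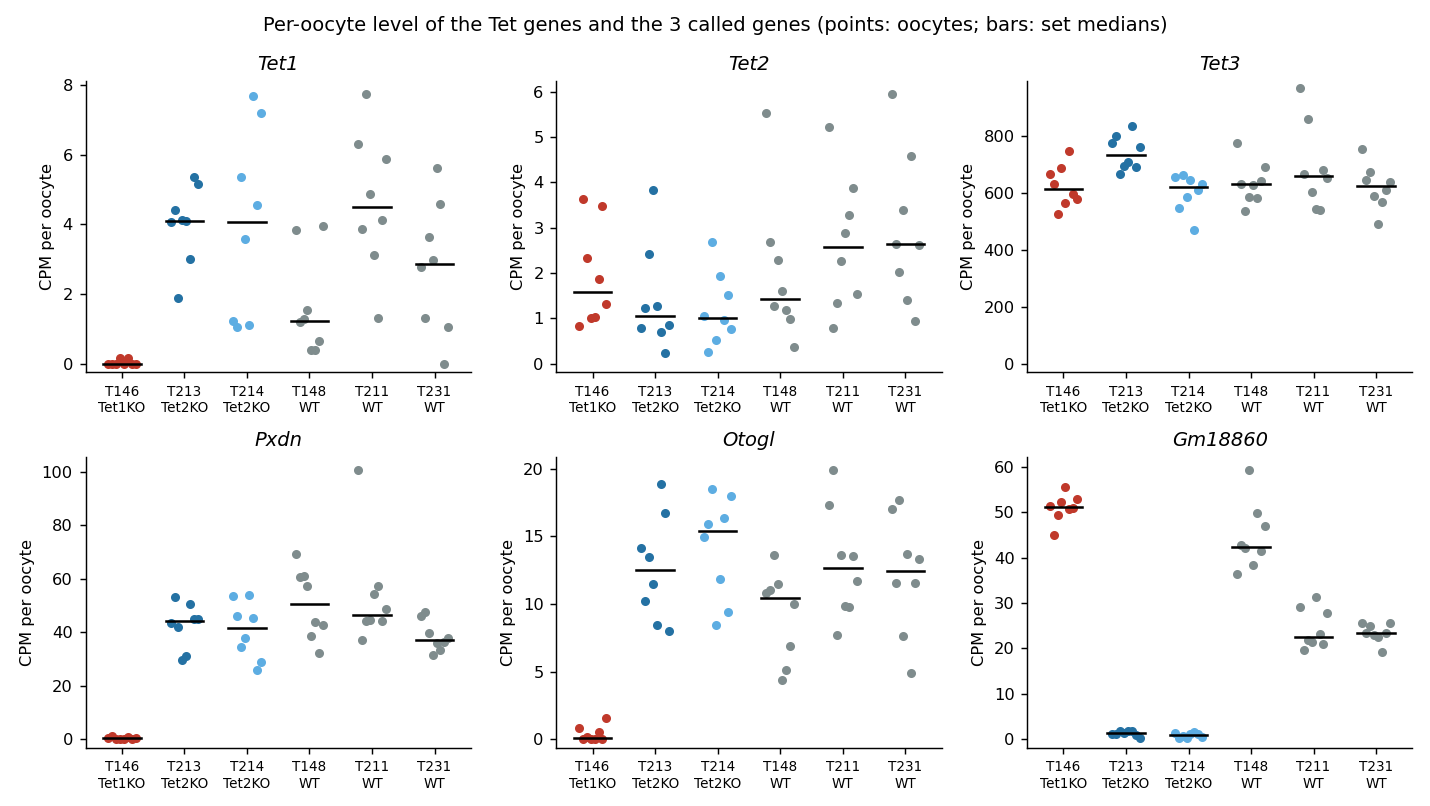
CPM per oocyte (vertical axes, linear) of Tet1, Tet2, Tet3 and the 3 called genes in the 6 young T-named sets (horizontal axes); each point is 1 oocyte and each bar a set median. Tet1, Pxdn and Otogl have a median near 0 CPM in set T146 and above 1 CPM in the other 5 sets, while Gm18860 is near 1 CPM in the Tet2KO sets T213 and T214 and lies between 19.2 and 59.3 CPM in the other sets.

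Total counts per oocyte were 5500057 to 12472307 in Tet1KO and 3303999 to 6374555 in Tet2KO. Before depth was equalised, the median number of genes detected was 18213 in T146 and 17485 ± 78.1 (SD of the set medians, n = 2 sets) in Tet2KO. After each oocyte was thinned to 3303999 counts it was 16848 in T146 and 17009 ± 9.9 in Tet2KO, the opposite order. The exact two-sided permutation test over 1 set against 2 gave p = 0.333 for both, the smallest p this design allows. Oocyte markers were abundant: all but Sohlh1, which was at 0.0933 CPM or less, exceeded 1 CPM in every knockout set, and the 19 markers summed to 25661 to 37980 CPM per oocyte. Markers of granulosa and cumulus cells summed to 64.4 to 114 CPM in Tet1KO and 62 to 116 CPM in Tet2KO. Of these 30 markers 22 were under 1 CPM in all 3 knockout sets, and Foxl2, Fshr, Nr5a1 and Inhbb were at 0. The most abundant were Cyp19a1 at 39.3, 45.8 and 38.5 CPM, Gata4 at 26.9, 31.6 and 24.9 CPM and Nr5a2 at 12.1, 12.4 and 11.8 CPM in T146, T213 and T214. Of the 6 granulosa and cumulus markers tested below, 3 were higher in Tet1KO at an unadjusted p under 0.05 (50%, beside 6.73% of all genes), Hsd3b1 at 2.68 CPM against 0.198 and 0.28 CPM, Kitl at 4.55 CPM against 2.18 and 1.65 CPM and Cyp11a1 at 2.09 CPM against 0.876 and 0.87 CPM. The part of other cells in the results was not tested. Macrophage and leukocyte markers summed to 20 to 32.6 CPM and 18 to 32.3 CPM, and 12 of these 16 were under 1 CPM in all 3 knockout sets. Laptm5 was at 8.62, 9.12 and 9.7 CPM in T146, T213 and T214, Csf1r at 7.79, 9.55 and 9.08 CPM. C1qb was at 5.96, 2.4 and 1.59 CPM. Oviduct and stromal markers summed to 93.5 to 137 CPM and 92.7 to 210 CPM, and 13 of these 16 were under 1 CPM in all 3 sets. Most of this sum was Pecam1 at 94.6, 117 and 83.2 CPM and Epcam at 15.2, 31.1 and 28.8 CPM. The haemoglobin genes were at 0 in all 24 oocytes.

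Across 13655 tested genes, 3 differed between the knockouts at an adjusted p under 0.05 (edgeR quasi-likelihood test, Benjamini-Hochberg adjustment), which is 0.022% of the genes tested. Pxdn and Otogl were lower in Tet1KO and the processed pseudogene Gm18860 was higher. At an unadjusted p under 0.05, 919 genes were higher in Tet1KO (6.73%) and 966 lower (7.07%). The median log2 change of all genes was -0.04.

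Pxdn (ENSMUSG00000020674.17, chromosome 12, 29937608 to 30017658) encodes peroxidasin, an extracellular peroxidase that crosslinks type IV collagen in basement membranes. It was at 0, 0.283 and 1.09 CPM in the Tet1KO oocytes, at 29.8, 44.3 and 53.3 CPM in T213 and at 26, 41.5 and 54 CPM in T214. Every Tet1KO oocyte was more than an order of magnitude below every Tet2KO oocyte. The fold difference of the set levels was 125, from 0.34 CPM to 42.6 ± 1.27 CPM (SD, n = 2 sets), and the log2 change was -6.89 ± 0.41 (SE; edgeR adjusted p = 0.0107). The WT sets stood at 39.2 to 53.8 CPM, beside the Tet2KO sets. Pxdn was not as low in the other young Tet1KO set of the series, set Young_Tet1-/-_201 (7 oocytes, from a separate count table), at 23.9 CPM, whereas the young WT set Young_WT__246 of that table was at 0.39 CPM.

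Promoters in the RefSeq table (GRCm38.p6; 250 bases before to 50 after the RefSeq start, which can differ from the gene start given with the counts) are shown for Pxdn, the gene with the smallest p, and for Vrk2 and Fancl, neighbours on chromosome 11 that were lower together and are described below. CG dinucleotides, the sites TET enzymes act on, are in capitals.
Pxdn: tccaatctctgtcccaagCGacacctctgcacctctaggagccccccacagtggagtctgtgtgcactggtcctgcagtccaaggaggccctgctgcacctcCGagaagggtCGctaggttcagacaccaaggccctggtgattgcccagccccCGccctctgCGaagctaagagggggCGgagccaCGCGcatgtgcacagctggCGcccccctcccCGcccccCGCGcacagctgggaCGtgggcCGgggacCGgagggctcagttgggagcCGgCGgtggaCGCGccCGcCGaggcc
Vrk2: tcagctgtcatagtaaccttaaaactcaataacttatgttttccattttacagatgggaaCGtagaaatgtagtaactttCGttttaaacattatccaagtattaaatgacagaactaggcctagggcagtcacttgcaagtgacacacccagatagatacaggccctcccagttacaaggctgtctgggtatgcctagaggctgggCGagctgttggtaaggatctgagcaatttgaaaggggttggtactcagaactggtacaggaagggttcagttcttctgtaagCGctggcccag
Fancl: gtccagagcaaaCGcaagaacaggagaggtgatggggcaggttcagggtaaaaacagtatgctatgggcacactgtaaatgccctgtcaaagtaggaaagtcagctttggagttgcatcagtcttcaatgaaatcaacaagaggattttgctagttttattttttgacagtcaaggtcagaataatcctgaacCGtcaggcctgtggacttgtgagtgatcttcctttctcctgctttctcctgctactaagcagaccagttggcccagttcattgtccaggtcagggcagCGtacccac
The Pxdn window (chr12:29937786-29938085, plus strand) held 21 CG, the Vrk2 window (chr11:26593871-26594170, minus strand) 4 and the Fancl window (chr11:26386834-26387133, plus strand) 3. The motif searched was CG, which reads the same on both strands, and 94.6% of the 32851 windows in the table held it at least once, with a median of 7. As many CG as in Pxdn or more were found in 24.8% of the windows, and 4 or fewer in 38%. The RefSeq table held a window for 12 of the 24 genes taken in turn below. Methylation was not measured in these oocytes.

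Otogl (ENSMUSG00000091455.4, chromosome 10, 107760531 to 107912134) encodes otogelin-like, a glycoprotein of the acellular membranes of the inner ear. Its level was 0, 0.0802 and 1.58 CPM in Tet1KO, 8.02, 12.5 and 18.9 CPM in T213, and 8.43, 15.4 and 18.5 CPM in T214. The groups did not overlap. Otogl was 32-fold lower in Tet1KO by the set levels, with a log2 change of -4.92 ± 0.41 (SE; edgeR adjusted p = 0.0416). The WT sets were at 9.28 to 13.1 CPM and set Young_Tet1-/-_201 at 8.1 CPM, all on the side of Tet2KO.

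Gm18860 (ENSMUSG00000110569.1, chromosome 8, 71704205 to 71704968) differed the other way. It was at 44.9, 51.2 and 55.7 CPM in Tet1KO, at 0.286, 1.35 and 1.89 CPM in T213, and at 0.255, 0.953 and 1.68 CPM in T214. Its log2 change was 5.58 ± 0.48 (SE; edgeR adjusted p = 0.0416), a 45.7-fold difference of the set levels. Among the T-named sets the Tet2KO sets stood apart here: WT set T148 was at 44.1 CPM, T211 at 24.6 CPM and T231 at 23.6 CPM. Set Young_Tet1-/-_201 was at 49.8 CPM and set Young_WT__246 at 35.6 CPM. The old WT set Old_WT_247 was low as well, at 1.64 CPM, and the old Tet2KO set S161 was not, at 17.7 CPM. The remaining old sets were at 22.4 to 66.3 CPM. A processed pseudogene can take reads of its parent gene, so the source of these reads is uncertain.

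All 3 calls were lost when T213 or T214 was left out (0 genes called each time; 1850 and 704 genes at an unadjusted p under 0.05). The fitted changes hardly moved without T213 or without T214, being log2 -6.85 and -6.92 for Pxdn, -4.99 and -4.84 for Otogl and 5.84 and 5.36 for Gm18860. They were also lost when the sets of both count tables entered with a term for the naming of the sets (0 genes; 1345 at an unadjusted p under 0.05; Pxdn log2 change -0.96, edgeR adjusted p = 0.981). DESeq2 on the same sums called 304 genes, the 3 knockout sets alone 459, and leaving out WT set T148 or T211 gave 105 or 27, each time with all 3 genes among them.

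**Figure D2:**
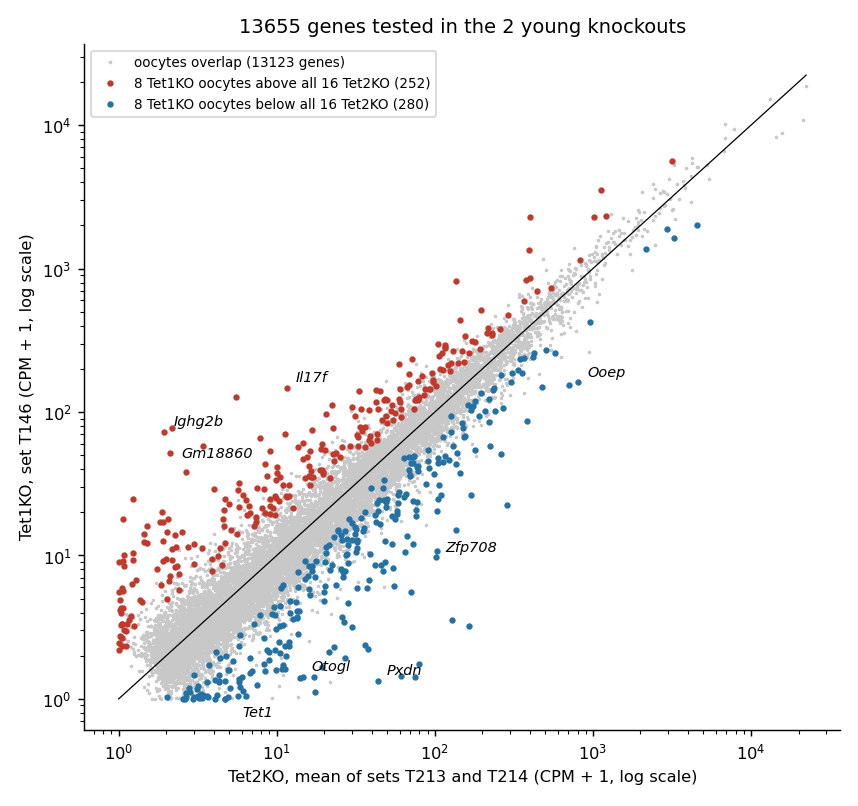
Set level of each of the 13655 tested genes in Tet1KO (vertical axis, set T146) and Tet2KO (horizontal axis, mean of T213 and T214), both as CPM + 1 on log scales, with the line of equality. Coloured points are the 252 genes whose 8 Tet1KO oocytes all lie above, and the 280 whose 8 lie all below, the 16 Tet2KO oocytes.

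Oocyte by oocyte, many more genes separated the knockouts than passed the test. In 252 genes all 8 Tet1KO oocytes lay above all 16 Tet2KO oocytes (1.85% of the genes tested), and in 280 genes they lay below (2.05%), together 3.9%. Of these 532 genes, 416 were at an unadjusted p under 0.05 and 143 differed more than 4-fold between the CPM + 1 of T146 and of the Tet2KO mean. With a level of at least 5 CPM in the higher knockout the counts were 224 and 234 of 9261 genes, and with each oocyte thinned to 3303999 counts they were 227 and 240. Oocytes of a set share their source, so these counts describe sets and are no test of genotype. The counts of the 2 directions are also not strictly comparable. A gene was tested only with at least 1 CPM in 2 of the 6 sets. A gene reaching this in T146 alone was therefore left out, while a gene reaching it in T213 and T214 alone was kept.

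Pairs of sets of the same genotype separated too, in fewer genes. T146 and T213 did not overlap in 844 genes (6.18%) and T146 and T214 in 1605 (11.8%). The WT sets T148 and T211 did not overlap in 770 genes (5.64%), T148 and T231 in 685 (5.02%), and T211 and T231 in 446 (3.27%). The Tet2KO sets themselves did not overlap in 333 genes (2.44%). T146 was closer to WT set T148 than to either Tet2KO set, with 316 genes not overlapping (2.31%) and a median absolute log2 difference of 0.201 in CPM + 1, against 0.292 to T213 and 0.391 to T214.

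**Figure D3:**
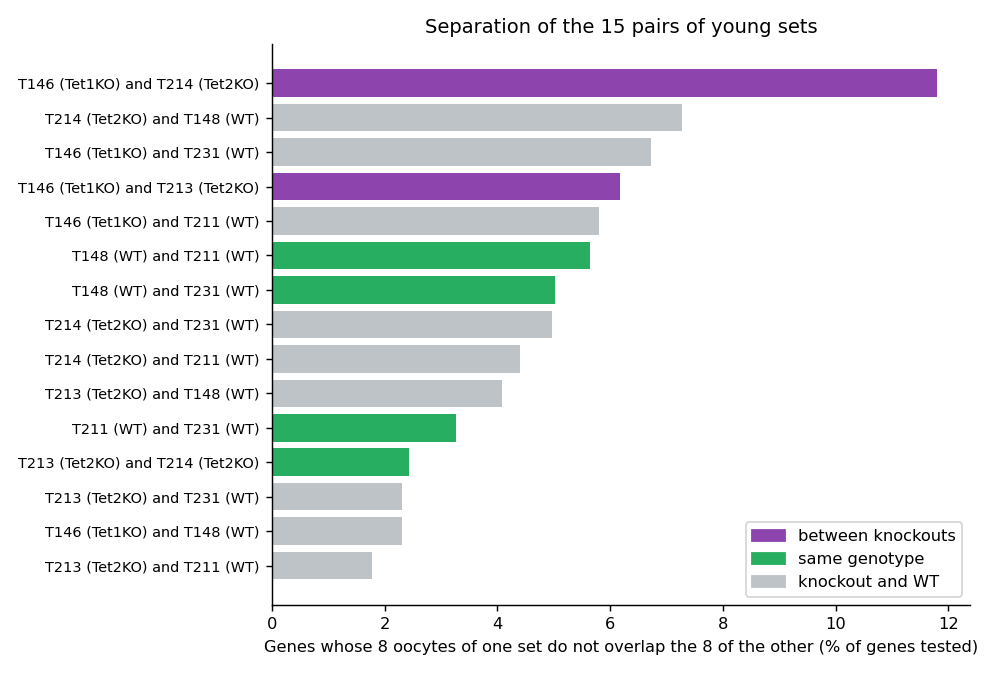
Percent of the 13655 tested genes in which the 8 oocytes of 1 set do not overlap the 8 of the other (horizontal axis), for all 15 pairs of young T-named sets. The pairs of Tet1KO with Tet2KO are at 6.18 and 11.8%, the pairs within WT reach 5.64%, and T146 with WT set T148 is among the lowest at 2.31%.

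The 12 genes of smallest p in each direction among the genes that separated the oocytes, at 5 CPM or more in the higher knockout, are taken in turn; besides the 3 called genes none passed the test (edgeR adjusted p from 0.0542 to 0.293). On the lower side, Socs2, a feedback inhibitor of cytokine and growth hormone signalling on chromosome 10, was at 0.241, 0.562 and 1.04 CPM in Tet1KO against 5.6, 11.9 and 16.2 CPM in T213 and 6.48, 8.58 and 11.5 CPM in T214. Its fitted log2 change was -4.01 ± 0.39 (SE; edgeR adjusted p = 0.0542), and the WT sets, at 8.51 to 9.81 CPM, stood with Tet2KO. Junb, a subunit of the AP-1 transcription factor on chromosome 8, was at 1.36 CPM in T146 and at 50.1 CPM in T213, but at 20.7 CPM in T214, with WT sets between 26.2 and 52.1 CPM. Tm7sf3, a membrane protein gene on chromosome 6, was at 91.1, 155 and 173 CPM in Tet1KO against 450 and 500 CPM in the Tet2KO sets. The pseudogene Gm5790 was at 0.0509 CPM against 4.94 and 5.81 CPM, and the non-coding transcripts 2610203C22Rik and Gm26553 were at 0.628 and 1.51 CPM in T146 against 9.46 to 10 CPM and 10.7 to 11.3 CPM in the Tet2KO sets.

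In 9 of the 12 lower genes, Pxdn, Otogl, Socs2 and Junb among them, all 3 T-named WT sets were nearer to Tet2KO than to T146 in log2 (CPM + 1). In the other 3 all T-named WT sets were nearer to T146, so that among the T-named sets the Tet2KO sets were the ones apart. WT set Young_WT__246 of the other count table was nearer to T146 in 10 of the 12, all but Otogl and Socs2. Set Young_Tet1-/-_201 of that table was nearer to T146 in 5 of the 12 and to Tet2KO in 7. Sept3, a septin expressed mainly in neurons, was at 0.0802, 1.17 and 2.87 CPM in Tet1KO, at 19.2, 33 and 37 CPM in T213 and at 31.6, 39.5 and 62 CPM in T214, while the WT sets were at 1.56 to 3.19 CPM. Vrk2, a serine/threonine kinase, was at 5.18 CPM in T146, 22.4 CPM in T213 and 23 CPM in T214, with 3.8 to 5.1 CPM in WT. Bbx, an HMG-box protein, was at 1.12, 6.33 and 9.57 CPM, with 1.66 to 1.9 CPM in WT. Fancl, a ubiquitin ligase of the Fanconi anaemia repair pathway whose 3′ end overlaps that of Vrk2 on the opposite strand, followed it at 4.3 CPM against 14.9 and 15.4 CPM, with 3.85 to 4.64 CPM in WT. Reads were counted without strand, so the overlap of the pair counts for both genes. The old WT set Old_WT_247 was at 20.6 CPM of Vrk2 and 12.8 CPM of Fancl, near the Tet2KO sets. The old Tet2KO set S161 was at 29.1 CPM of Vrk2 and 18 CPM of Fancl. WT sets Old_WT_365 and Young_WT__246 were at 3.72 and 4.31 CPM of Vrk2 and at 3.46 and 4.13 CPM of Fancl.

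On the higher side, Slc25a17, a carrier of the peroxisome membrane, was at 175, 236 and 279 CPM in Tet1KO, 45.8, 70.6 and 81.2 CPM in T213, and 42.5, 71.1 and 106 CPM in T214. The groups did not overlap, the log2 change was 1.80 ± 0.18 (SE; edgeR adjusted p = 0.0542), and the WT sets at 153 to 175 CPM lay between them. Timd4, a phosphatidylserine receptor known from macrophages, was at 69.1 CPM in T146 against 12.6 and 8.08 CPM, with WT at 31.5 to 48.3 CPM. Il17f, a cytokine gene, was at 147 CPM against 11.3 and 9.89 CPM, and the WT sets were spread from 23.3 to 79.8 CPM. Nup153, a protein of the nuclear pore basket, was at 149 CPM against 67.6 and 63.1 CPM. Sntg2, a syntrophin, was at 10.4 CPM against 1.38 and 1.21 CPM.

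The remaining higher genes were 5 pseudogenes or non-coding transcripts, Gm7019, Gm5815, Gm47003, Gm34045 and Rps2-ps10, and Hmga1b, a copy of the chromatin protein gene Hmga1. Gm7019 was at 28 CPM in T146 and at 5.36 to 8.67 CPM in T213, T214, the WT sets and set Young_Tet1-/-_201, so that T146 alone stood apart. Hmga1b was at 28.4 CPM against 6.58 and 6.34 CPM, and at 66.5 CPM in set Young_Tet1-/-_201 and 73.9 CPM in set Young_WT__246. Of the 12 higher genes, all 3 T-named WT sets were nearer to T146 in 4 (Gm18860, Slc25a17, Gm5815 and Timd4) and nearer to Tet2KO in 6. Set Young_Tet1-/-_201 was nearer to T146 in 8 of the 12 and set Young_WT__246 in 9.

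Rps2, a protein of the small ribosomal subunit, and its processed copy Rps2-ps10 on chromosome 18 were each among these genes, in opposite directions. Rps2 was at 36.4 CPM in T146 against 134 and 152 CPM, and Rps2-ps10 at 13.6 CPM against 1.55 and 1.49 CPM. Over the 13 oocyte sets of the series, Rps2-ps10 exceeded 10 CPM in 4, T146, set Young_Tet1-/-_201, young set Young_WT__246 and old set Old_WT_247, and these had the 4 lowest Rps2 levels, 36.4 to 58.3 CPM. The other 9 sets had 0.569 to 1.55 CPM of Rps2-ps10 and 60.1 to 152 CPM of Rps2. Of the 4 sets, all but T146 were of the other count table. The remaining sets of that table were at 60.1 to 107 CPM of Rps2, and those of the T-named table at 96.2 to 152 CPM. The sequences of Rps2 and Rps2-ps10 were not compared, and how reads were split between them is uncertain.

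The genes that separated the oocytes were often neighbours. Taking same-direction genes with gaps of up to 250000 bases as a run, 193 of the 532 genes (36.3%) lay in 77 runs, 21 of them with 3 genes or more, and in 46 runs no members overlapped each other. No comparison value for these shares was computed, and overlapping genes share reads. Chromosome 13 had 46 of 617 tested genes separated (7.46%), above the 3.9% of all chromosomes, and chromosome 16 had 5 of 412 (1.21%). By gene type, 47 of 609 long intergenic non-coding RNAs (7.72%) and 32 of 542 processed pseudogenes (5.9%) separated, against 384 of 11028 protein-coding genes (3.48%). Around the targeted genes the shares were not above this: within 10 Mb of Tet1, 3 of 79 tested genes separated (3.8%; Ppa1, Rtkn2 and Gm16212, all lower), and within 10 Mb of Tet2 1 of 80 did (1.25%; Mcub, higher).

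The longest run held 10 genes higher in Tet1KO on chromosome 13, 66227319 to 67032408, where 16 genes were tested. It is a region of zinc-finger genes and pseudogenes that ends with Mterf3, a regulator of mitochondrial transcription, Ptdss1, a phosphatidylserine synthase, and the antisense transcript 4933433G19Rik, which overlaps Ptdss1. Gm10772 was at 11.2 CPM in T146 against 0.508 and 0.528 CPM, Gm7896 at 11.7 CPM against 0.734 and 1.09 CPM, and Gm10323 at 32.4 CPM against 8.62 and 9.05 CPM. Ptdss1 was at 109, 150 and 163 CPM in the Tet1KO oocytes, 36, 62.4 and 71 CPM in T213, and 44.8, 59.2 and 71.1 CPM in T214. Its log2 change of 1.35 ± 0.38 (SE) was not called (edgeR adjusted p = 0.342). WT set T148 lay between, at 112 CPM, and WT sets T211 and T231 were at 68.7 and 57.3 CPM. Over the 10 genes of this run, T148 was nearer to T146 in 4, and T211 and T231 in 0. Set Young_Tet1-/-_201 was nearer to T146 in 4 and set Young_WT__246 in 10.

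Directly beside this run on chromosome 13, 67069399 to 67116263, lay the zinc-finger genes Zfp708 and Rslcan18, KRAB zinc-finger proteins being a family of transcriptional repressors, with the read-through gene Gm28557 that overlaps both. These were lower in Tet1KO. Zfp708 was at 5.45, 8.01 and 13.8 CPM in Tet1KO, 49.5, 89.5 and 171 CPM in T213, and 83.5, 105 and 144 CPM in T214. The groups did not overlap, and the log2 change was -3.46 ± 0.64 (SE; edgeR adjusted p = 0.295). WT set T148 was intermediate at 24.2, 38.8 and 44.4 CPM, WT sets T211 and T231 were at 108 and 86.8 CPM, set Young_Tet1-/-_201 was at 18.1 CPM and set Young_WT__246 at 4.17 CPM.

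A second group of zinc-finger genes lay on chromosome 7, 24134169 to 24452297, with 7 of 13 tested genes lower in Tet1KO, namely Zfp235, Zfp111, Zfp109, Zfp108, the processed transcript Gm44796, the GTPase gene Irgc1 and the overlapping Gm36159. Zfp109 was at 0.934 CPM in T146 against 23.3 and 29.1 CPM, and Zfp108 at 56.7 CPM against 154 and 288 CPM. Gm44796 was at 0.0802, 0.335 and 1.15 CPM in the Tet1KO oocytes and at 37.8 CPM or more in each Tet2KO oocyte. WT set T148 matched T146 here, with Gm44796 at 0 to 0.48 CPM and Zfp109 at 0.855 CPM, while WT sets T211 and T231 were with Tet2KO at 52.4 and 58.9 CPM of Gm44796. Set Young_Tet1-/-_201, at 51.8 CPM of Gm44796 and 22.3 CPM of Zfp109, was with Tet2KO too. With WT sets this far apart, Gm44796 had a log2 change of -7.37 ± 2.72 (SE; edgeR adjusted p = 0.351).

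Immunoglobulin heavy-chain constant genes on chromosome 12, 113302965 to 113361232, were higher in T146 and in WT set T148 than in the other 4 T-named sets. Ighg2b was at 59.6, 70 and 90.8 CPM in Tet1KO, 0.223, 0.61 and 3.15 CPM in T213, and 0.257, 0.882 and 3.03 CPM in T214. WT set T148 was at 66.5, 85.3 and 115 CPM, and WT sets T211 and T231 at 1.32 and 1.71 CPM. Ighg1 was at 52.5 CPM in T146 and 90.1 CPM in T148 against 8.19 CPM or less in the other 4 sets, and Ighg3 at 17 and 24.1 CPM against 0.19 CPM or less. Unlike on chromosome 7, set Young_Tet1-/-_201 was nearer to T146 in all 3 genes, with Ighg2b at 36.9 CPM, Ighg1 at 23.5 CPM and Ighg3 at 9.95 CPM. WT set Young_WT__246 of the same count table was nearer to T146 in all 3 too, at 53.3, 27.3 and 12.5 CPM. Ighm, another heavy-chain constant gene, was at 26.6 CPM in T146 and 24.7 CPM in T148 against 12 to 14.6 CPM in the other 4 sets. The light chain Igkc was at 0 in all 6 sets, and Jchain, Cd79a and Ptprc, which mark antibody-producing cells or leukocytes, were at 0.136 CPM or less. Ms4a1 was not low, at 127 CPM in T146, 59.5 CPM in T213 and 121 CPM in T214.

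Other runs were smaller. On chromosome 15, 34875496 to 36235621, Stk3, a kinase of the Hippo pathway, was at 139 CPM in T146 and 105 CPM in T148 against 36.7 to 48.3 CPM in the other 4 sets, and Vps13b, Polr2k and Spag1 were higher with it. On chromosome 6, 146577203 to 146871406, Arntl2, a circadian transcription factor, was at 4.57 CPM in T146 and 6.11 CPM in T148 against 68.4 to 93.2 CPM, in a run of lower genes with Tm7sf3, Fgfr1op2 and Smco2. On chromosome 3, 96345287 to 96388864, all 4 tested genes were lower, the non-coding Platr30, Gm26553, Gm17575 and Gm26689, in overlapping pairs, with Platr30 at 7.56 CPM in T146, 21.2 CPM in T148 and 40.2 to 45.9 CPM elsewhere. On chromosome 8, 84831522 to 85003349, Junb, Hook2, Prdx2 and Gadd45gip1 were among the lower genes. There the Tet2KO sets were unlike each other: Gadd45gip1 was at 30.4 CPM in T213 and 97.1 CPM in T214, against 9.63 CPM in T146.

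Over the 21 runs of 3 genes or more, 81 genes, WT set T148 was nearer to T146 in 56, set Young_Tet1-/-_201 in 51 and set Young_WT__246 in 62. WT sets T211 and T231 were nearer to T146 in 3 and 10, and the old Tet2KO set S161 in 4. Over the 458 separated genes at 5 CPM or more, T148 was nearer to T146 in 346 (75.5%), T211 in 75 (16.4%), T231 in 112 (24.5%), set Young_Tet1-/-_201 in 275 (60%) and set Young_WT__246 in 264 (57.6%). By the nearer side, sets of WT genotype thus stood on both sides of the genes that separated the knockouts. Of the 458 genes, the level lay between T146 and the Tet2KO mean in 337 for T148, 318 for T211 and 317 for T231. For sets Young_Tet1-/-_201 and Young_WT__246 the counts were 287 and 271. These genes were chosen because T146 and Tet2KO differ in them, which by itself favours a level between. The same share over all genes tested was not computed, so no conclusion is drawn from these counts.

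**Figure D4:**
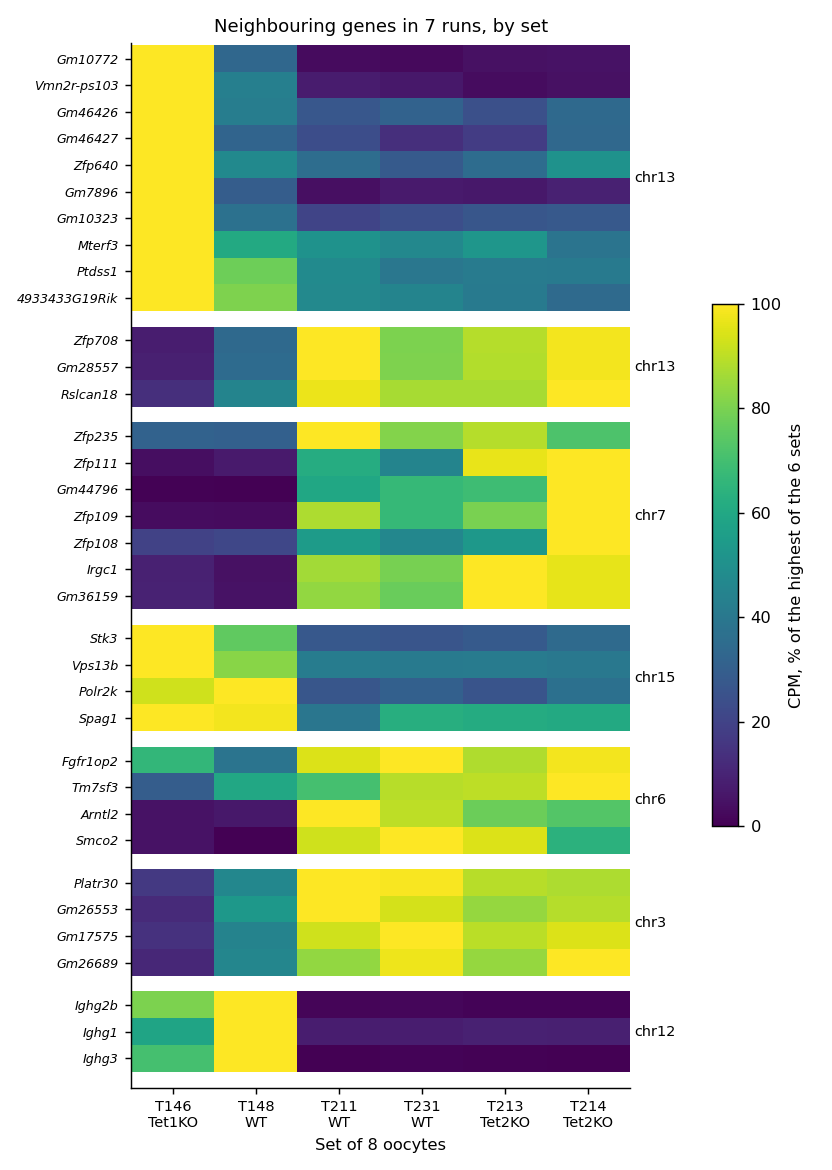
Level of the genes of 7 runs (rows, grouped by chromosome) in the 6 young T-named sets (columns), as the CPM in percent of the highest of the 6 sets (colour). T146 and WT set T148 are alike or T148 is intermediate in most rows, as in Zfp708 at 8.71, 37, 108 and 86.8 CPM in T146, T148, T211 and T231, while T211 and T231 resemble the Tet2KO sets T213 and T214.

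No member of the 34 gene lists examined was called. Among the 26 lists with 10 tested members or more, the median log2 change ran from -0.43 to 0.34, beside -0.04 for all genes. Mitochondrial transcripts had the lowest median. All 13 protein-coding genes of the mitochondrial genome, subunits of the respiratory chain and ATP synthase, were below 0, and 4 were lower at an unadjusted p under 0.05 (30.8%, beside 7.07% of all genes): mt-Nd1, mt-Nd5, mt-Nd3 and mt-Nd4l. mt-Nd1 was at 1154, 1392 and 2245 CPM in the Tet1KO oocytes against 2598 and 2345 CPM in the Tet2KO sets (log2 change -0.69 ± 0.21 SE, edgeR adjusted p = 0.342). These transcripts took 0.914, 1.06 and 1.44% of the counts in Tet1KO, 1.04, 1.74 and 2.44% in T213, and 1.22, 1.44 and 1.89% in T214. The ranges overlapped, and the WT set medians of 1.11 to 1.47% spanned much of the same distance. The genes of 1 genome share their source and are not independent. Nuclear genes of the respiratory chain had a median of 0.21, with 42 of 68 above 0, and mitochondrial ribosomal proteins one of -0.24, with 49 of 75 below 0.

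Cytosolic ribosomal proteins were below 0 in 48 of 70 tested genes, with a median of -0.23. Of these, 7 were at an unadjusted p under 0.05 and lower (10%, beside 7.07% of all genes) and 0 were higher. Rpl37 was at 2.7 CPM in T146 against 29.2 and 20.7 CPM, and at 2.82 CPM in WT set T148, 20.3 CPM in T211 and 13.3 CPM in T231. Rpl17 was at 22.6 CPM against 56.6 and 96.1 CPM, and Rplp0 at 22.2 CPM against 63.1 and 51.5 CPM. Together the list took 0.0854 to 0.108% of the counts in the Tet1KO oocytes and 0.123 to 0.197% in the Tet2KO oocytes, which did not overlap. WT set T148, at 0.0966 to 0.138%, overlapped both, and its median of 0.106% was near the 0.102% of T146. Over sets the exact two-sided permutation p was 0.333, the smallest possible. Ribosomal protein genes have many processed copies, so their levels depend on how reads were split.

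Genes of the oocyte itself differed in both directions without a call. Among zona pellucida and oocyte-secreted factors (11 tested, median 0.32), Bmp15, a growth factor that acts on the surrounding granulosa cells, was at 4158, 5069 and 6959 CPM in Tet1KO, 2214, 3434 and 4378 CPM in T213, and 2692, 3191 and 3721 CPM in T214. These ranges overlapped only between the lowest Tet1KO and the highest T213 oocytes (log2 change 0.77 ± 0.16 SE, edgeR adjusted p = 0.336). Its partner Gdf9 was at 10218 CPM against 7907 and 5817 CPM, and at 7495 to 10487 CPM in WT. Astl, the protease that cleaves the zona after fertilisation, was at 1172 CPM against 590 and 370 CPM. Oosp1, another secreted oocyte protein, was at 1882 CPM against 3115 and 2747 CPM.

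Maternal-effect genes (25 tested, median 0.23) also lay on either side of 0, 15 above and 10 below. Ooep, a subunit of the subcortical maternal complex, was at 112, 139 and 278 CPM in Tet1KO, 517, 619 and 970 CPM in T213, and 535, 1010 and 1197 CPM in T214. The groups did not overlap, but the oocytes of the WT sets covered 115 to 890 CPM, and the log2 change of -2.26 ± 0.48 (SE) was not called (edgeR adjusted p = 0.336). Nlrp2, another maternal-effect gene, was at 154 CPM against 81.9 and 54.3 CPM. The histone chaperone gene Npm2 was at 184 CPM against 294 and 339 CPM, and Ctcf, an organiser of chromatin loops, at 25.2 CPM against 53.1 and 61.2 CPM. Dazl, which activates translation of stored mRNA, was at 970 CPM against 1858 and 1673 CPM, with WT at 1457 to 1632 CPM.

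Genes that read, write or remove DNA methylation gave 31 tested members, of which only Tet1 was at an unadjusted p under 0.05, with a median of 0.09. Idh1, an enzyme that makes the cofactor of TET proteins, was at 87.2 CPM against 68.1 and 56.8 CPM, and Mbd4, a glycosylase of the repair that follows, at 40.8 CPM against 32.6 and 23.1 CPM. Among germline genes that promoter methylation silences in somatic cells (19 tested, median -0.02), 2 were lower at an unadjusted p under 0.05, Dazl and Mael (10.5%, near the 7.07% of all genes), and 0 higher. Among 28 imprinted genes (median 0.02), Igf2r was at 29.8 CPM against 15.7 and 14.8 CPM and its antisense transcript Airn at 0.849 CPM against 2.23 and 3.08 CPM. The 2 overlap on opposite strands, and reads within the overlap count for both. Igf2 was at 0.102 CPM against 0.989 and 1.15 CPM.

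Lists of meiosis and of the spindle lay on either side of 0, beside 6460 of all 13655 genes above it. Of 39 tested cell cycle genes 26 were above 0 (median 0.21), with 6 higher (15.4%, beside 6.73% of all genes) and 2 lower (5.13%, beside 7.07%) at an unadjusted p under 0.05. Ccnb2, a cyclin B, was at 377 CPM against 266 and 245 CPM, and Cdc25a, a phosphatase that activates cyclin-dependent kinases, at 6.21 CPM against 16.7 ± 3.39 CPM (SD, n = 2 sets). Of 24 genes of cohesin and the chromosome axis 8 were above 0 and 16 below (median -0.08), and of 31 of the kinetochore and spindle checkpoint 16 and 15 (median 0.03). Of 34 spindle and cortical actin genes 22 were above 0 (median 0.14), with Kif18a, a motor of chromosome alignment, at 221 CPM against 154 and 151 CPM. Among 22 antioxidant enzymes (median -0.22) 5 were lower (22.7%, beside 7.07% of all genes) and 2 higher (9.09%, beside 6.73%) at an unadjusted p under 0.05, with the peroxiredoxin Prdx2, neighbour of Junb, at 106 CPM against 340 and 196 CPM. Proteasome genes (40 tested, median -0.04) had 6 higher (15%) and 4 lower (10%), against the same shares of all genes.

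Pnpla3, a lipid droplet lipase, and the neighbouring transcript Gm49513 were named after their values were seen. Pnpla3 was at 117 CPM in T146 against 126 and 129 CPM, with a log2 change of -0.06 ± 0.21 (SE; edgeR adjusted p = 0.91), while the WT sets were at 1.71 to 2.05 CPM. Gm49513 was at 58.4 CPM against 70.1 and 68.8 CPM, with WT at 1.52 to 1.88 CPM. In these genes the knockouts stood together and apart from WT.

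**Figure D5:**
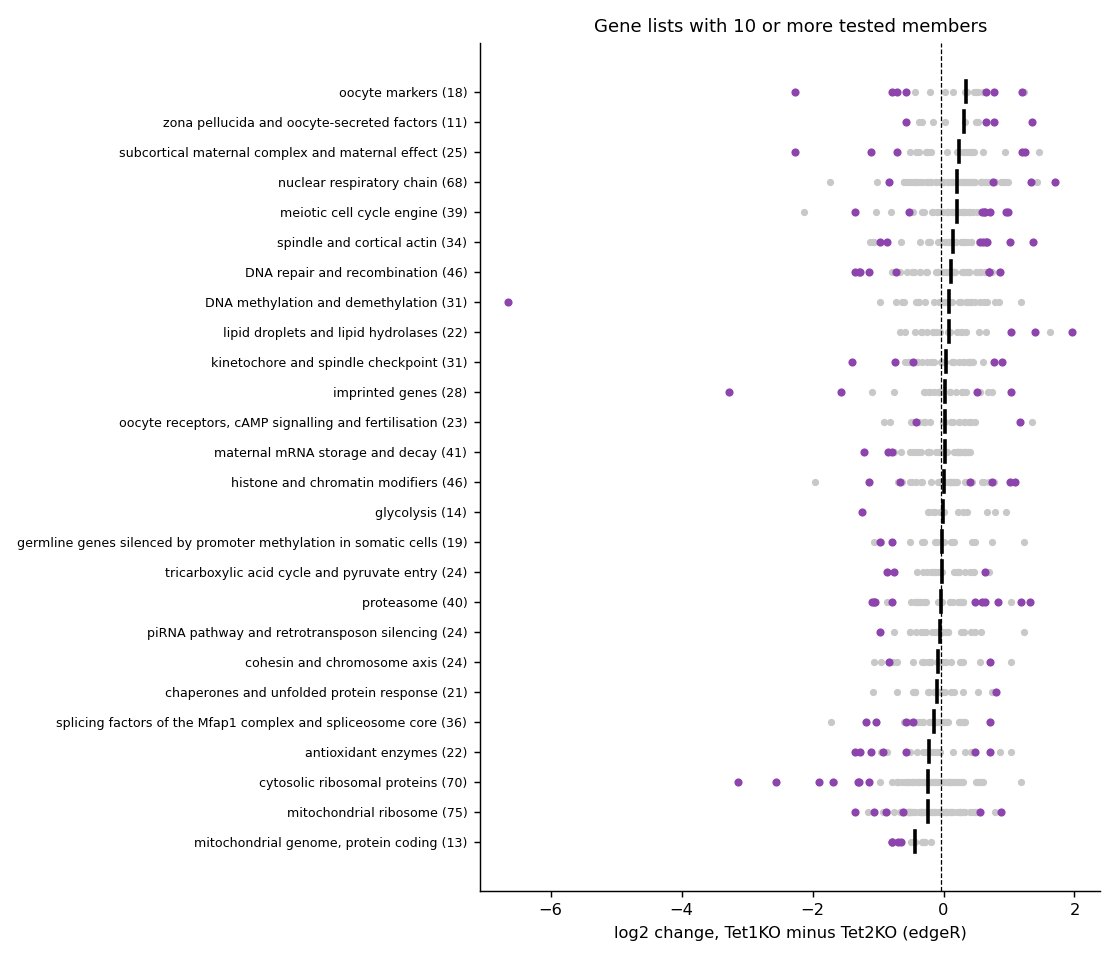
Log2 change from Tet1KO minus Tet2KO (horizontal axis, edgeR) of the tested members of the 26 gene lists with 10 or more of them (rows; number tested in brackets). Purple points are members at an unadjusted p under 0.05, black bars list medians and the dashed line the median of all genes, -0.04; the medians lie between -0.43 and 0.34.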

How the data were processed

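Total RNA of single metaphase II oocytes was sequenced. The authors deposited raw gene counts. Per the file headers they ran featureCounts 1.6.2 without strand on GENCODE mouse release 17. Its options kept alignments of mapping quality 30 and above and allowed multi-mapped and multi-gene reads. How many multi-mapped reads reached that quality was not tested. HISAT2, SAMtools and the mm10 build are listed, unversioned, in the submitters' processing notes. Reads in an overlap of genes therefore count for each gene. Another 39 count columns carry names found in no label and were left out.

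Oocyte counts were added up per set, the unit of replication. Which sets came from which animals is not labelled, so p-values measure only the spread between sets. Genes with at least 1 CPM in 2 of 6 sets were tested (13655 of 53715) with edgeR 4.0.16 (TMM, quasi-likelihood test, 1 mean each for Tet1KO, Tet2KO and WT, 3 residual degrees of freedom, common biological coefficient of variation 0.287), with p-values adjusted over all genes tested. DESeq2 1.42.0 and limma 3.58.1 were alternatives. Levels are CPM by library total; gene types come from GENCODE release 21, matched by identifier. Among the 84 pairs of oocytes within the knockout sets 0 were identical (lowest chi-square per degree of freedom 5.49).

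Named genes are Tet1, Tet2 and Tet3, every called gene, genes filling up to 12 in each direction by smallest unadjusted p among those at 5 CPM or more in the higher knockout whose 8 and 16 oocytes did not overlap, and up to 4 members of each gene list by smallest unadjusted p; genes of neighbouring runs and the immunoglobulin and B-cell genes were chosen after their values were seen. The members and the lists were chosen with earlier results of these data known.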

Additional observations from a re-analysis of the deposited data

Results flagged for a closer look

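In each set of 8 oocytes the highest and lowest values of the 27 named genes and of 4 library measures were compared with the other 7 oocytes. In 6 of the 93 groups 1 oocyte stood apart, where chance gives about 1 in 20. Oocyte T2134 of Tet2KO set T213 was high in Gm5815 at 22.4 CPM (the other 7 at 8.02 to 13.2 CPM) and low in Tm7sf3 at 222 CPM (388 to 526 CPM). Oocyte T2137 of the same set was high in Sntg2 at 3.79 CPM (0.352 to 1.88 CPM). Oocyte T2141 of Tet2KO set T214 was high in Sept3 at 62 CPM (31.6 to 45.6 CPM) and in its total of 5696921 counts (3303999 to 4165675). Oocyte T1464 of Tet1KO set T146 was high in Gm34045 at 46.7 CPM (9.78 to 18.7 CPM). None of these was among the 3 called genes.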

How the results depend on the processing

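Of the 13 alternatives, the number of called genes stayed at 3 with DESeq2 size factors, with library totals in place of TMM and with a stricter filter of 5 CPM in 2 sets, and was 4 with limma on set means (Socs2 added). It was 304 with DESeq2, 1110 of 30642 genes with no filter beyond 1 count, 459 with the 3 knockout sets alone (1 residual degree of freedom) and 0 with the sets of both tables. Leaving out 1 set gave 0 to 105 calls: 0 without T213 or T214, 105 without WT set T148, 27 without T211 and 2 (Il17f and Pxdn) without T231. The cause of these moves was not tested. Without TMM the median log2 change of all genes was -0.10, in place of -0.04.

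The counts of genes whose oocytes did not overlap were 224 higher and 234 lower at 5 CPM or more, and 227 and 240 after thinning, an alternative chosen after seeing the data. With a Tet2KO set left out they ranged from 378 to 690 higher and from 466 to 915 lower, the larger values without T213; fewer oocytes are compared there. The difference in genes detected, 728 genes as measured (673 to 783 with a Tet2KO set left out), was -160 after thinning, the opposite sign. The mitochondrial share differed by -0.68 to -0.38 and the ribosomal protein share by -0.045 to -0.038 percentage points with a Tet2KO set left out.

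Of 346 values of the 27 named genes under the alternatives, 241 kept their direction and side of the threshold, 93 passed it newly, 11 no longer did (all of Pxdn, Otogl and Gm18860), and 1 changed sign: Tet3 was at 0.10 without T213 (-0.21 without T214). Tet1 was lower under each alternative that tested it, and its adjusted p ran from 4.56e-11 (no filter) to 0.765 (without T214). No paired analysis was possible because the sets share no replicate numbers. The depth of at least 3303999 counts leaves Tet2 at a few counts per oocyte, so a change in its level smaller than its counting interval was not detectable here.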

Other observations

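Placental and zinc-finger genes not described above also differed between the sets. In a run on chromosome 7, 18474582 to 18656725, the pregnancy-specific glycoprotein genes Psg26, Psg23 and Psg21, known from the placenta, were at 2.31, 1.73 and 2.04 CPM in Tet1KO set T146 and at 0.0933 CPM or less in the Tet2KO sets. WT set T148 was at 1.03, 0.299 and 1.15 CPM and WT set T211 at 0.0693, 0 and 0.0693 CPM. WT set T231 was at 0, 1.26 and 0.342 CPM, near T146 in Psg23 alone. Each of these Psg genes was tested only because a WT set besides T146 reached 1 CPM. Set Young_Tet1-/-_201 was at 0.335, 0.279 and 0.196 CPM and set Young_WT__246 at 0, 0 and 0.0806 CPM. Both were nearer to Tet2KO in all 3 genes. In a run of 3 on the same chromosome, 39449518 to 39540420, the zinc-finger pseudogene Zfp939 was at 102 CPM in T146 and 81.7 CPM in T148. It was at 28.8 to 50.3 CPM in the other 4 sets. The zinc-finger gene Zfp619 was at 3.72 and 2.95 CPM against 0.173 to 0.622 CPM. The zinc-finger genes Zfp212 and Zfp956 on chromosome 6, 47920476 to 47965300, were lower in T146, at 44.2 and 16.9 CPM against 83.7 and 42.6 CPM in T213 and 95.9 and 66.9 CPM in T214, with T148 at 72.1 and 17.3 CPM. None of these 7 genes was called (edgeR adjusted p from 0.342 to 0.387). They were chosen after their values were seen.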
